A study of Mus musculus with 6 samples.

Results

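The fibrillar collagens examined here were the 8 genes COL1A1, COL1A2, COL2A1, COL3A1, COL5A1, COL5A2, COL5A3 and COL11A1. A probe set, the group of short oligonucleotides that reports 1 transcript on the array, was taken as a member when its only annotated symbol was one of these genes. This gave 21 of the 22283 probe sets of the array, and 8 of the 11943 genes named by probe sets with a single symbol. Total RNA that the series assigns to C2C12, an established line of mouse muscle precursors in which myoblasts divide until they fuse to form multinucleated myotubes, had been labelled with biotin and hybridised to 6 HG-U133A arrays, 3 of myoblasts and 3 of myotubes. The comparison asked how expression differs between the dividing and the fused stage. No genotype, treatment, culture medium or time is given for either group in the labels used here, and none says whether each array had its own culture. P-values therefore cover only array-to-array spread, which may be technical. HG-U133A was designed against human transcripts whereas the labels give the organism as mouse. Which species the RNA came from was not settled, and genes are named after the human transcripts that the probe sets target.

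Fibrillar collagens are secreted as procollagens, whose chains wind around each other into a rod-like helix. After their propeptides are cut off outside the cell, the helices assemble side by side into the banded fibrils that give connective tissue its tensile strength. COL1A1 and COL1A2 encode the chains of type I collagen, the main fibril former of tendon, bone and muscle connective tissue, and COL3A1 encodes the chain of type III collagen, which shares fibrils with type I. COL5A1, COL5A2 and COL5A3 encode chains of type V collagen, a minor component at the fibril core that controls fibril initiation and diameter. COL2A1 and COL11A1 encode chains best known from cartilage, where type XI collagen takes the place of type V, although COL11A1 is also made outside cartilage. In skeletal muscle, types I, III and V are found in the connective tissue, which includes the endomysium, the sheath around each muscle fibre. Fibroblasts are considered their main source there.

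Promoter sequences are shown because several of these genes moved together, so that the letters upstream of members that passed the test can be read beside those of a member that did not. RefSeq promoters of the mouse genes, on the plus or minus strand of GRCm38.p6, were held for 5 of the 8 members. The 250 bases upstream of each gene's start are printed 5′ to 3′ along the gene. Capitals mark the CCAAT box (CCAAT, read on the other strand as ATTGG), the GC box (GGGCGG, read on the other strand as CCGCCC) and the TATA box (TATAAA, read on the other strand as TTTATA).

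Col3a1, chr1:45311288-45311537, plus strand: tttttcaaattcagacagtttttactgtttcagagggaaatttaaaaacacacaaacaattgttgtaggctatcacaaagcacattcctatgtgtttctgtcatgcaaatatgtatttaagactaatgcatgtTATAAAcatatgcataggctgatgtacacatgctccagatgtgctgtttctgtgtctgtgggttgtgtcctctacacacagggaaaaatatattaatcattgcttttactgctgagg
Col11a1, chr3:114030290-114030539, plus strand: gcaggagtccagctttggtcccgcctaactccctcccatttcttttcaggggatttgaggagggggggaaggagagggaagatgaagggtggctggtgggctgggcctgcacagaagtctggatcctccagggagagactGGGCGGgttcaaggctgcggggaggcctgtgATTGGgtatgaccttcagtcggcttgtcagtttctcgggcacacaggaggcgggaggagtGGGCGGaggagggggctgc
Col5a3, chr9:20815068-20815317, minus strand: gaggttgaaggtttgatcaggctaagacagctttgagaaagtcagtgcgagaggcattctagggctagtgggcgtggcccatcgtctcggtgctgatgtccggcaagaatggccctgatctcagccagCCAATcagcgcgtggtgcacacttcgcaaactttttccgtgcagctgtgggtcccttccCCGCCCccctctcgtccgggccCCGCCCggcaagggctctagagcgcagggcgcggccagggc
Col1a2, chr6:4505368-4505617, plus strand: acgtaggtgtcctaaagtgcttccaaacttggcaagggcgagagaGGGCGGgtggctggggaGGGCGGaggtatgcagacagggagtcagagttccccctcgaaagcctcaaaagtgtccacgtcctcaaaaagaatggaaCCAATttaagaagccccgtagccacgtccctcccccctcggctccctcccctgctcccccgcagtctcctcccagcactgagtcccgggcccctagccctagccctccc
Col5a1, chr2:27886175-27886424, plus strand: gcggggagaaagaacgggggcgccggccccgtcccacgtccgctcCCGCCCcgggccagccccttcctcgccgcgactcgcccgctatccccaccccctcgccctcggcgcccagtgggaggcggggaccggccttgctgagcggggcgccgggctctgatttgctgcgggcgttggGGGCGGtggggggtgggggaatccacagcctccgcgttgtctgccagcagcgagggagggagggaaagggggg

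No motif was present in all 5 windows. The CCAAT letters lay 109 bases upstream in Col1a2 and 122 bases upstream in Col5a3, and on the opposite strand 79 bases upstream in Col11a1. GC boxes occurred in Col1a2, Col5a1, Col5a3 and Col11a1 but not in the window of Col3a1, which held TATAAA 117 bases upstream. Among 32851 RefSeq promoter windows of the same 250 bases, 33.8% held CCAAT, 32.7% held the GC box and 12.4% held TATAAA on either strand. A match is a description of letters, not a binding site. Promoters of Col1a1, Col2a1 and Col5a2 are not shown.

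All arrays had been scaled to about the same trimmed mean, but their bright ends differed. The geometric mean of the 6 GAPDH and beta-actin control probe sets was 160809 on myoblast array 1, 50901 and 52586 on myoblast arrays 2 and 3, and 97132 to 130107 on the myotube arrays. The geometric mean of the spike-in controls ranged between arrays from 3539 to 71439. Across probe sets Pearson's r was 0.988 between myoblast arrays 2 and 3, against 0.889 to 0.912 for the other pairs within a group. Myotube array 3 correlated at 0.92 and 0.924 with myoblast arrays 2 and 3 but at 0.903 and 0.908 with the other myotube arrays, so the arrays did not sort by stage on this measure. Runs of consecutive laboratory codes in the run records joined myoblast array 1 to the 3 myotube arrays and set myoblast arrays 2 and 3 apart. In a fit blocked on these laboratory series the groups meet only in the first, where 1 myoblast array stands against 3 myotube arrays. Chip lot and scan day separated the myotube arrays from all myoblast arrays and cannot be told apart from the group. Myoblast array 3 is titled Grow with no stage, and was grouped by its description, whose numbering stops at the second myoblast array. A signal was taken as not above background when it did not exceed the brightest unspiked control on that array, 251.5 to 1040.2. Of the muscle markers tested, 9 of 14 were higher in myotubes and none lower by limma, against 5.41% higher over all 8148 genes tested. Among these 9, only MYL4 and ACTC1 had a myoblast mean above 474.5, the mean signal required for testing. MYH3, MYL1, TNNI1, TNNC1, TNNT1, ACTA1 and MEF2C were tested only through the myotube arrays, which favours a call of higher. MYF5, MYOG, MYF6, CKM and PAX7 were not above background on any array.

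Of the 21 collagen probe sets, 18 from 7 genes were bright enough to be tested, by their mean over all 6 arrays. COL1A1 202312_s_at, COL5A3 218975_at and both COL11A1 probe sets reached the filter only through the myotube arrays. For these the filter favours a call of higher in myotubes. Without it, 8 of the 21 collagen probe sets were higher by limma, against 551 of 22168 over all. Of the 18 tested with the filter, 10 were higher in myotubes by limma (adjusted p below 0.05), none was lower and 8 did not pass. Over the 13301 probe sets tested, 4.95% were higher and 11.4% changed in either direction. With each gene represented by its brightest tested probe set, COL1A1, COL3A1, COL5A3 and COL11A1 were higher, 4 of 7 genes, against 5.41% of 8148 genes tested. COL1A2 passed only through its other probe set. All 3 myotube arrays lay above all 3 myoblast arrays for 11 of the 18 collagen probe sets, against 17.5% of all tested. The median log2 change was 1.50 over the 18 collagen probe sets and 0.09 over all tested. The sign was positive for all 18 with the arrays as deposited, and the share of positive signs over all probe sets was not counted. Scaled to the GAPDH and actin controls, COL1A1 202311_s_at and all tested COL5A1 and COL5A2 probe sets were negative. Values were compared as log2(signal + 197), so the changes of dim probe sets are understated. In RNA from a whole culture, fewer cells of a type and less RNA per cell cannot be told apart. Left out one at a time, the arrays gave 6 to 12 collagen probe sets. The lowest count came without myotube array 2, where 222 of all 13301 probe sets were higher. The highest came without myoblast array 1, where 1803 of all were higher. In the fit blocked on laboratory series 6 passed, against 1.54% of all probe sets higher in that fit.

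**Figure D1:**
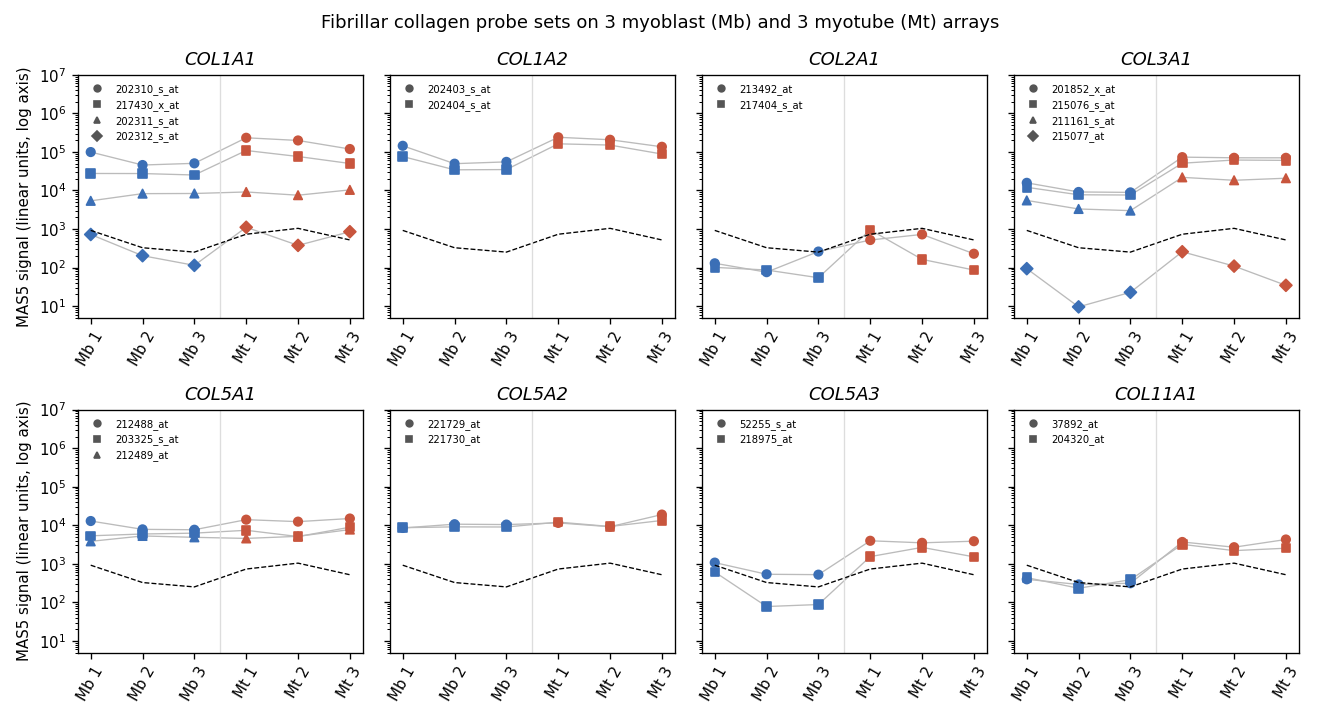
Deposited signal (linear units on a log axis) of all 21 fibrillar collagen probe sets on each of the 3 myoblast (Mb, blue) and 3 myotube (Mt, red) arrays, 1 panel per gene and 1 symbol shape per probe set; the dashed line is the highest unspiked control of each array. COL3A1, COL5A3 and COL11A1 step up at the myotube arrays, COL5A1 and COL5A2 lie between 3823 and 18928 on all arrays, and COL2A1 lies around the dashed line.

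Type III collagen was higher in myotubes by 3 of its 4 probe sets. The COL3A1 probe set 201852_x_at read 15765, 9137 and 8908 in the myoblast arrays, in order of their number, against 73150.2, 70327 and 70233 in the myotube arrays. The myotube arrays lay within a few percent of each other and all far above the highest myoblast array. The log2 change was 2.69 ± 0.26 (SE, n = 3 per group), a 6.45-fold difference on this scale (limma, adjusted p = 0.000456). Probe set 215076_s_at, with myoblast signals of 12072, 7725 and 7612 and myotube signals of 50890.2, 61556 and 60244, changed by 2.66 ± 0.24 (limma, adjusted p = 0.000379). The dimmer 211161_s_at rose from 5515, 3307 and 2997 to 21868, 18361 and 20762, a log2 change of 2.36 ± 0.23 (limma, adjusted p = 0.000467). These 3 probe sets therefore gave the same direction with changes that differed by about their errors, and in each the groups were apart. The fourth, 215077_at, was not above background on any array and was not tested, with signals from 9.55 to 257. Blocked on laboratory series, the 3 changes were 2.16, 2.23 and 1.84, with limma adjusted p-values of 0.00111, 0.00161 and 0.00476.

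Some probe sets of type I collagen were also higher in myotubes. Both the calls and the size of the change depended on single arrays and on how the bright end of the arrays was treated. COL1A1 202310_s_at read 99117, 45664 and 50509.6 on the myoblast arrays and 232522, 198052 and 118765 on the myotube arrays. Every myotube array was above every myoblast array, though myotube array 3 was only slightly above myoblast array 1. The log2 change of 1.52 ± 0.43 passed narrowly (limma, adjusted p = 0.0474) and did not pass without myoblast array 2 (limma, adjusted p = 0.204), myoblast array 3 (0.2), myotube array 1 (0.171) or myotube array 2 (0.17). COL1A1 217430_x_at was more even among myoblasts, at 27570.5, 27444 and 25157, and reached 108707, 76062 and 50035 in myotubes. Its groups were apart by a wider margin, with a log2 change of 1.47 ± 0.31 (limma, adjusted p = 0.0149). It did not pass without myoblast array 3 (limma, adjusted p = 0.0562), myotube array 1 (0.0627) or myotube array 2 (0.0774).

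The other COL1A1 probe sets went less far. Probe set 202311_s_at read 5379.8, 8265 and 8343 in the myoblasts against 9133, 7531 and 10345 in the myotubes. Myotube array 2 lay below myoblast arrays 2 and 3, so the groups overlapped, and the log2 change of 0.31 ± 0.22 did not pass (limma, adjusted p = 0.36). Probe set 202312_s_at was not above background on any myoblast array, at 721, 203 and 114, and read 1109, 376 and 849.7 in myotubes, where myotube array 2 was also not above background. With the myoblast signals raised to the brightest unspiked control of their arrays and the myotube signals taken as measured, the geometric mean was at least 1.67-fold higher in myotubes, and this includes the myotube array that was not above background. The change itself, 0.93 ± 0.51, did not pass (limma, adjusted p = 0.246). The COL1A1 probe sets thus disagreed, with 2 of 4 passing.

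COL1A2, the partner chain of COL1A1 in type I collagen, followed it from array to array. Probe set 202403_s_at read 143958, 49476 and 55104 in myoblasts and 239625, 206554 and 135729 in myotubes. Myotube array 3 fell below myoblast array 1, so the groups overlapped, and the log2 change of 1.36 ± 0.48 did not pass (limma, adjusted p = 0.0932). Without myoblast array 1 it was 1.85 and passed (limma, adjusted p = 0.00188). Probe set 202404_s_at read 75754, 34311 and 34810.4 against 162172, 150358 and 88144. Its groups were apart, and the log2 change of 1.52 ± 0.41 passed (limma, adjusted p = 0.0388) but was lost without myoblast array 2, myoblast array 3, myotube array 1 or myotube array 2 (limma, adjusted p from 0.149 to 0.167).

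These 4 bright type I probe sets sat where the arrays themselves differed. Among the 261 probe sets tested whose mean on myoblast arrays 2 and 3 was at least 50% of the GAPDH and actin controls, the median log2 change was 0.57 with all arrays, -0.05 after quantile normalisation and -0.19 when blocked on laboratory series. In the bins from 5% to 20% and from 20% to 50%, which hold the tested COL3A1, COL5A1 and COL5A2 probe sets and COL1A1 202311_s_at, the median with all arrays was -0.31 and -0.33. Quantile normalisation, which gives all arrays the same distribution, put COL1A1 202310_s_at at 0.68 (limma, adjusted p = 0.00994), 217430_x_at at 1.11 (0.0121), COL1A2 202403_s_at at 0.52 (0.02) and 202404_s_at at 0.95 (0.00598), all of which passed, in a fit where 4.67% of all probe sets were higher. In the blocked fit the same probe sets changed by 0.83, 1.43, 0.39 and 0.77, and none passed (limma, adjusted p = 0.26, 0.0819, 0.584 and 0.269). As a share of the GAPDH and actin controls of the same array, COL1A1 202310_s_at was 61.6%, 89.7% and 96.1% on the myoblast arrays and 179%, 153% and 122% on the myotube arrays. For COL1A2 202403_s_at the shares were 89.5%, 97.2% and 105% against 184%, 159.5% and 139.7%. For COL1A2 202404_s_at they were 47.1%, 67.4% and 66.2% against 125%, 116% and 90.7%. In each of these probe sets the shares were higher on all myotube arrays than on all myoblast arrays. They overlapped for COL1A1 217430_x_at, at 17.1%, 53.9% and 47.8% against 83.6%, 58.7% and 51.5%, and for COL1A1 202311_s_at, at 3.35%, 16.2% and 15.9% against 7.02%, 5.82% and 10.7%. What part of the type I difference comes with the bright end of the arrays was not tested.

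**Figure D2:**
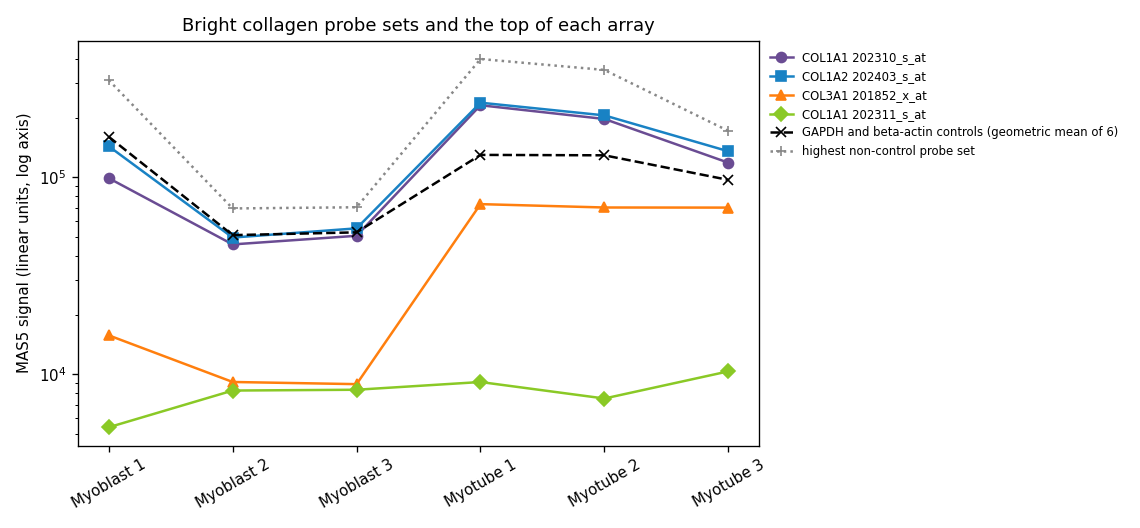
Signal (linear units on a log axis) of 4 collagen probe sets on the 6 arrays, with the geometric mean of the 6 GAPDH and beta-actin control probe sets (dashed) and the highest non-control probe set (dotted) of each array. COL1A1 202310_s_at and COL1A2 202403_s_at are as low as 45664 and 49476 on myoblast array 2, where the controls are at 50901, while COL3A1 201852_x_at reaches at least 70233 on all 3 myotube arrays.

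The type V chains split. COL5A1 212488_at read 12874, 7826 and 7645 in myoblasts and 13964, 12412 and 14953 in myotubes, so that myotube array 2 was just below myoblast array 1. Its log2 change of 0.57 ± 0.23 did not pass (limma, adjusted p = 0.123), although without myoblast array 1 it was 0.81 and passed (limma, adjusted p = 0.00785). The other COL5A1 probe sets, 203325_s_at and 212489_at, ranged from 3823 to 6243 in myoblasts and from 4555 to 8891 in myotubes, with overlapping groups. Their changes of 0.25 ± 0.22 and 0.29 ± 0.23 did not pass (limma, adjusted p = 0.454 and 0.411).

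COL5A2 221729_at read 8509.5, 10652 and 10415 in myoblasts and 11501, 9160.2 and 18928 in myotubes. Only myotube array 3 stood well above the myoblast arrays, and the change of 0.35 ± 0.26 did not pass (limma, adjusted p = 0.368). COL5A2 221730_at read 8639, 9085 and 9003 against 12062, 9296 and 13296, and here the groups did not overlap but the change of 0.35 ± 0.19 did not pass either (limma, adjusted p = 0.226). In the mouse RefSeq annotation Col5a2 and Col3a1 are neighbouring protein-coding genes on chromosome 1.

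COL5A3, which encodes the third type V chain, was higher in myotubes. Probe set 52255_s_at read 1074, 535 and 523 in myoblasts and 3956, 3501 and 3858 in myotubes. All 6 signals were above background, the groups were far apart, and the log2 change was 2.18 ± 0.27 (limma, adjusted p = 0.00141). Probe set 218975_at, at 613, 77.9 and 87.8, was not above background on any myoblast array and read 1537, 2666 and 1516 in myotubes. Its myotube mean was at least 4.35-fold above the myoblast background, with a fitted log2 change of 2.36 ± 0.47 (limma, adjusted p = 0.0119) that did not pass without myotube array 2 (limma, adjusted p = 0.0774). Blocked on laboratory series, 52255_s_at changed by 1.64 and passed (limma, adjusted p = 0.02), and 218975_at changed by 1.33 and did not (0.173).

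COL11A1 was higher in myotubes by both of its probe sets. Both reached the brightness filter only through the myotube arrays, with myoblast means of 333 and 352 against a filter of 474.5. Without the filter both also passed (limma, adjusted p = 0.000399 and 0.00165). Probe set 37892_at read 396, 291 and 313 in myoblasts, where 2 of the 3 arrays were not above background, and 3681, 2694 and 4269.8 in myotubes. The lowest myotube array was several times the highest myoblast array, and the log2 change was 2.80 ± 0.27, a 6.97-fold difference on this scale (limma, adjusted p = 0.000467). Probe set 204320_at read 438, 232 and 387 against 3196, 2198 and 2536, again with 2 myoblast arrays not above background and with groups far apart. It changed by 2.38 ± 0.29 (limma, adjusted p = 0.00141). The size of the COL11A1 change depends on the treatment of its dim myoblast signals, and for 37892_at it was 2.46 with signals raised to background and 2.07 with the median of all values as pseudocount. In those fits COL3A1 201852_x_at changed by 2.69 and 2.64, so COL11A1 has no fixed place ahead of COL3A1. The series block gave 2.64 and 2.15 (limma, adjusted p = 0.00853 and 0.0246).

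COL2A1, the main fibrillar collagen of cartilage, stayed around background. Probe set 213492_at read 129, 75.9 and 260.1 in myoblasts and 518, 724 and 228 in myotubes, and only myoblast array 3 was above its array's background. Probe set 217404_s_at read 101, 86.3 and 54.5 against 950.2, 163 and 86.2, and only myotube array 1 was above background. Neither was bright enough to be tested, and no direction is read from them. Of 13 bone and cartilage markers on the array, 8 were not above background on any array, including MATN1, MATN3, COMP, CHAD and HAPLN1. Of the 5 tested 1 was higher, SPP1 (limma, adjusted p = 0.0411), against 5.41% of all 8148 genes tested. Leaving out any array other than myoblast array 1 ended this call (limma, highest adjusted p = 0.172), and it did not hold when blocked on laboratory series (0.482).

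**Figure D3:**
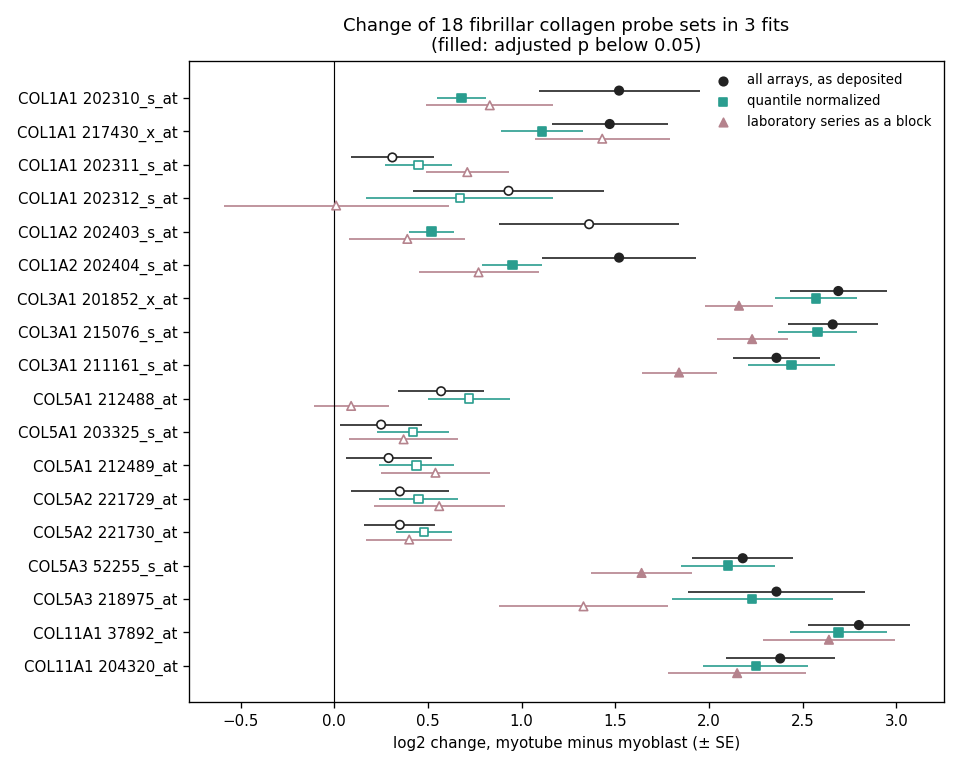
Log2 change (myotube minus myoblast, with SE bars, 3 arrays per group) of the 18 tested collagen probe sets with all arrays as deposited (black circles), after quantile normalisation (green squares) and blocked on laboratory series (pink triangles); filled symbols have a limma adjusted p below 0.05. The COL3A1 and COL11A1 probe sets and COL5A3 52255_s_at are filled in all 3 fits, the bright type I probe sets lie closer to 0 in the other fits apart from 217430_x_at with the block, and COL5A1 and COL5A2 are open throughout.

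Log2 ratios of 2 members on the same array were compared between the groups for 5 pairs chosen by known partnership. Apart from the pseudocount they do not depend on a single scaling factor per array. They can still depend on array differences that change with brightness. With 3 arrays against 3 the exact two-sided permutation test cannot go below 0.10, or 0.167 after adjustment over these 5 pairs. The ratio of one probe set to another says nothing of their relative abundance, and only its difference between groups is read. The COL1A1 to COL1A2 ratio was -0.54, -0.12 and -0.13 in myoblasts and -0.04, -0.06 and -0.19 in myotubes. These overlapped, and the difference was 0.16 ± 0.15 (exact p = 0.40, adjusted 0.5). It was -0.38 with the mean of each gene's probe sets and -0.59 with the dimmest ones, so no direction holds for this pair.

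COL3A1 over COL1A1 was -2.64, -2.30 and -2.48 in myoblasts and -1.67, -1.49 and -0.76 in myotubes. All 3 myotube arrays were higher, by 1.17 ± 0.30 (exact p = 0.10, adjusted 0.167). COL11A1 over COL5A1, the chains that stand in for each other in mixed type V and XI molecules, went from -4.46, -4.04 and -3.94 to -1.87, -2.12 and -1.76. The groups did not overlap, and the difference was 2.23 ± 0.19 (exact p = 0.10, adjusted 0.167). Since COL11A1 37892_at was not above background on 2 myoblast arrays, the myoblast ratios are in part set by background and pseudocount, and with a pseudocount of 16 the difference was 2.75. The COL11A1 and COL5A1 probe sets also lie in different brightness bins, with median changes of 0.24 and -0.31. After quantile normalisation these 2 probe sets changed by 2.69 and 0.72. COL5A1 over COL1A1, the core to bulk ratio of the fibril, was -2.93, -2.52 and -2.69 in myoblasts and -4.04, -3.97 and -2.97 in myotubes. It was lower on every myotube array, narrowly so on array 3, with a difference of -0.95 ± 0.36 (exact p = 0.10, adjusted 0.167). This pair, like COL3A1 over COL1A1, spans the range of brightness in which the arrays differed. It runs from a bin whose median change was -0.31 to one whose median was 0.57. After quantile normalisation the changes of the same COL5A1 and COL1A1 probe sets were 0.72 and 0.68, close to each other. The ratio differed by -0.69 with each gene's probe sets averaged (exact p = 0.2) and by -0.64 with the dimmest ones (exact p = 0.4). COL5A1 over COL5A2 overlapped, at 0.59, -0.44 and -0.44 against 0.28, 0.43 and -0.34, and differed by 0.22 ± 0.41 (exact p = 0.80, adjusted 0.8).

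**Figure D4:**
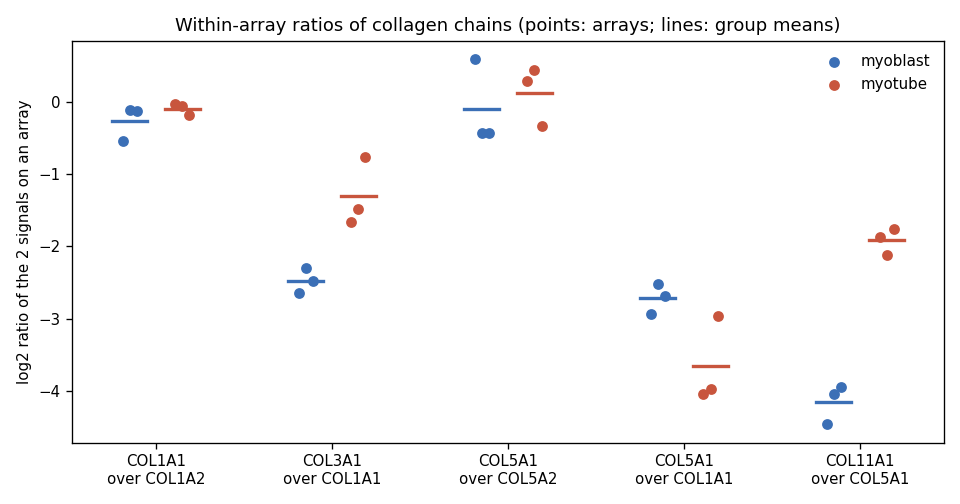
Log2 ratio of the signals of 2 collagen genes on the same array (brightest tested probe sets) for 5 pairs, in 3 myoblast (blue) and 3 myotube (red) arrays; horizontal lines are group means. The groups are apart for COL3A1 over COL1A1, COL5A1 over COL1A1 and COL11A1 over COL5A1, and overlap for COL1A1 over COL1A2 and COL5A1 over COL5A2.

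Across the 6 arrays the collagens differed in how closely they followed each other. These correlations of log2(signal + 197) include the difference between the groups and the shared scaling of each array, and are given as descriptions over 6 arrays. Pearson's r was 0.98 for COL1A1 with COL1A2, 1.00 for COL3A1 with COL5A3 and 0.98 for COL11A1 with both COL3A1 and COL5A3. COL5A2 followed none of them closely, with r = 0.07 to COL1A1, 0.03 to COL1A2 and at most 0.56 to any other member. Among the 8147 other genes, those most like COL1A2, the member with the brightest probe set, were DGKA, RPL30, EPHB6, TMPRSS11D and FTL (r from 0.996 to 0.998), none of which passed the test. Those most like COL11A1 were SSBP2, GPRC5A, DCN, TNNI1 and MEST (r from 0.995 to 0.999), all of which did. Each was picked for following its collagen over the same 6 arrays. COL1A2 202403_s_at itself did not pass and COL11A1 37892_at did. The test results of the picked genes therefore largely follow from the choice and are no separate finding. DCN encodes decorin, a proteoglycan that binds collagen fibrils, and TNNI1 encodes a troponin of slow muscle fibres.

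Genes that act on fibrillar collagens were followed through lists chosen by role. Of 22 genes tested for modification, folding and secretion of procollagen, 0 were higher and 0 lower by limma, and all 22 missed the threshold. Their median log2 change was 0.10 against 0.12 over all 8148 genes tested, of which 441 were higher and 549 lower. The smallest p-values were those of SEC23A, a coat protein of the vesicles that carry procollagen, with a change of -0.85 ± 0.27 (limma, adjusted p = 0.0727), and P4HA1, a catalytic subunit of prolyl 4-hydroxylase, with -0.75 ± 0.25 (0.0804). Neither passed, and both had a sign opposite to that of the collagens. By brightness SEC23A falls in the bin from 5% to 20% of the controls and P4HA1 in that from 20% to 50%. The medians of all probe sets in these bins were themselves negative, at -0.31 and -0.33. Blocked on laboratory series, the 2 genes changed by -0.28 and -0.21. Of 8 genes for propeptide cleavage and cross-linking, 2 were higher, with a median of 0.65. BMP1, the proteinase that removes the C-terminal propeptide, read 1738, 1432 and 1500.3 in myoblasts and 3128, 3599 and 3515 in myotubes, a change of 1.04 ± 0.20 (limma, adjusted p = 0.00966), with 3 of its 4 probe sets passing. PCOLCE, which enhances that cleavage, changed by 0.76 ± 0.17 (limma, adjusted p = 0.0194).

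Of 14 tested partners at the fibril surface 7 were higher and none lower by limma, with a median of 1.23. ASPN, a small leucine-rich proteoglycan, was not above background on any myoblast array and read 1357, 1701 and 2042 in myotubes, at least 3.97-fold higher (limma, adjusted p = 0.00683). LUM, which encodes lumican of the same family, read 450.3, 877 and 698 against 3112, 2823 and 4610.5 and changed by 2.09 ± 0.28 (limma, adjusted p = 0.0022). POSTN, the matricellular protein periostin, went from 21946, 5705 and 5308 to 39445, 37006 and 38196, where myoblast array 1 stood well above the other myoblasts. Its change of 2.10 ± 0.44 (limma, adjusted p = 0.0153) did not pass without myotube array 1 or myotube array 2, and was 0.79 when blocked on laboratory series (limma, adjusted p = 0.0612). Of 7 collagen receptors tested, 1 was higher, MRC2, an endocytic collagen receptor, by 0.80 ± 0.17 (limma, adjusted p = 0.0148) through 1 of its 2 probe sets.

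Among 10 tested genes of collagen breakdown and its inhibition 6 were higher and none lower, with a median of 1.17. The list holds the inhibitors TIMP1, TIMP2 and TIMP3 beside the proteinases. TIMP2 (0.84 ± 0.19) and TIMP3 (1.50 ± 0.32) were among those higher (limma, adjusted p = 0.0194 and 0.0166), and TIMP1 did not pass (0.0937). Both calls were lost when some single arrays were left out. CTSK, the lysosomal collagenase cathepsin K, read 2556, 2964 and 2956 in myoblasts and 16110.4, 18126 and 18556 in myotubes. The spread within each group was small, and the change was 2.56 ± 0.17 (limma, adjusted p = 8.1e-05). DPP4 and FAP, related peptidases of the cell surface, changed by 1.62 ± 0.30 and 1.53 ± 0.22 (limma, adjusted p = 0.00922 and 0.00289). Of 25 regulators of collagen genes 3 were higher and 1 lower, with a median of 0.12. TGFB3, a TGF-beta ligand, changed by 1.74 ± 0.33, SMAD3, which carries its signal to the nucleus, by 0.89 ± 0.23 through 1 of 4 probe sets, and LARP6, which binds the messenger RNA of type I collagen, by 0.84 ± 0.20 (limma, adjusted p = 0.0103, 0.0314 and 0.0265). TWIST1, a transcription factor of mesenchyme, fell by 0.94 ± 0.23 (limma, adjusted p = 0.0289).

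Over the 6 lists 19 of 86 tested entries were higher and 1 lower, and when blocked on laboratory series 4 were higher and 0 lower. CTSK (2.69), LUM (2.49) and FAP (1.31) were among those 4 (limma, adjusted p = 0.000731, 0.00993 and 0.0481). On 1 myoblast array each, LUM, DPP4 and TGFB3 were not above background. ASPN, DPP4 and TGFB3 reached the brightness filter only through the myotube arrays. The number higher was 9 without myotube array 2, 11 when myoblast array 2 or 3 was left out, 12 when myotube array 1 was and 32 when myoblast array 1 was. Over all 8148 genes tested, 441 were higher with all arrays, 158 without myotube array 2 and 1191 without myoblast array 1. PCOLCE, MRC2, SMAD3, LARP6, TWIST1, BMP1 and TGFB3 each lost their call when some single array was left out, whereas CTSK, LUM, ASPN, FAP and DPP4 did not.

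**Figure D5:**
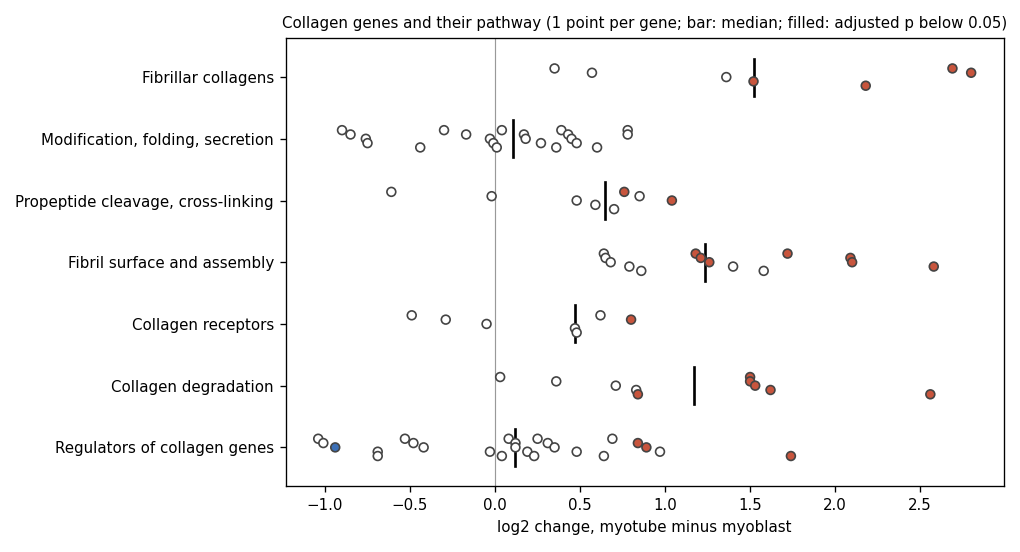
Log2 change (myotube minus myoblast) of each tested gene in the fibrillar collagens and in 6 lists of genes that act on them, 1 point per gene at its brightest tested probe set; filled points have a limma adjusted p below 0.05 (red higher, blue lower) and the vertical bars are list medians. The fibril surface and degradation lists have medians of 1.23 and 1.17, the degradation list including the TIMP inhibitors. The 22 modification, folding and secretion genes are all open, around a median of 0.10.

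Fibroblasts are considered the main source of collagen types I, III and V in muscle. Of 14 fibroblast markers on the array 10 were tested and 7 were higher by limma, against 5.41% of all 8148 genes tested. The median log2 change of the tested fibroblast markers was 1.43, and 1.13 when blocked on laboratory series. DPT and TCF21 were not above background on any array. The 14 markers had a summed signal of 26317 to 27616 on the myoblast arrays and 73562 to 77173 on the myotube arrays. The 3 that did not pass were PDGFRA, a receptor that marks fibroblasts of muscle, with a change of -0.30 (limma, adjusted p = 0.584), CD34 with 0.95 (0.056) and the brightest probe set of FBLN1 with 0.38 (0.258). Probe sets of a gene disagreed here too. Counting calls in either direction, 2 of 5 tested probe sets passed for FBLN1. Of the genes counted as higher, THY1 passed by 1 of 3 and DCN by 3 of 4. LUM, DCN and DPT also stand among the fibril surface partners, FAP among the breakdown genes and TCF21 among the regulators. Muscle markers had a summed signal of 5513 to 17066 in myoblasts and 49409 to 56311 in myotubes. Of the markers of smooth muscle, endothelium and blood, 3 of 4 tested were higher (CNN1, ACTA2 and TAGLN). CNN1 reached the brightness filter only through the myotube arrays. MYH11, CDH5 and PTPRC were not above background, and 0 of 3 adipocyte markers tested were higher. The part of these markers' cells in the collagen differences was not tested.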

How the data were processed

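Each deposited value is an intensity in linear units for 1 probe set. The authors computed it with MAS5, according to the entry in the submitters' processing notes, and the version was not given in the sources used here. The array number limits the precision. Groups came from the labels; in 3 myoblast run records the replicate number differs from the title, and titles were used. Probe sets were named from the platform annotation of 2016 (19065 with 1 symbol, 1043 with several, 2107 with none), and 68 controls and 47 sex-linked probe sets were left out. Signals were taken as log2(signal + 197), 197 being the 25th percentile of the table, and those whose mean fell under the 40th percentile (474.5) were dropped, leaving 13301. The test was limma 3.58.1 (two-sided, lmFit followed by eBayes with trend, Benjamini-Hochberg over all probe sets tested, threshold 0.05, R 4.3.3, statmod 1.5.0). It was run on simulated arrays with independent noise and no batch. That run does not show how the test behaves with the differences between these arrays. Figures used matplotlib 3.10.9. The collagens, the lists and the tests were chosen with earlier results of these data known. All member probe sets were named, with up to 3 passing genes per direction of each list, or the 2 with the smallest p where none passed, and the 5 genes most correlated with the brightest and with the most changed member. The TIMP inhibitors of the breakdown list were named in addition. Alternatives changed the pseudocount, the filter, the scaling (quantile or 75th percentile) or the eBayes settings (no trend, robust), or used a 2-fold minimum, signals raised to background, averaged probe sets of a gene, the replicate number, chip lot or laboratory series as a block, the first series alone, myoblast arrays 2 and 3 averaged, and leaving out each array. Scaling to the GAPDH and actin controls, and the dimmest probe sets for the ratios, were added after seeing the data.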

Additional observations from a re-analysis of the deposited data

How the results depend on the processing

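The 2 brightest COL3A1 probe sets and both COL11A1 probe sets passed under each of the 21 alternatives run for them. Counts of collagen probe sets that passed were 7 to 11 of those tested under the other choices and 6 of 18 with chip lot as a random block, with the laboratory series as a block or with the first series alone; leaving out single arrays gave 6 to 12 probe sets and 3 to 6 genes. Over all probe sets 1513 passed, against 919 with eBayes without trend, 576 with myoblast arrays 2 and 3 averaged, 401 with the chip lot, 338 with the laboratory series, 174 in the first series alone and 493 to 3469 without single arrays. Of the collagen pathway genes 4 were higher and 0 lower with the laboratory series, and 9 to 32 higher and 0 to 7 lower without single arrays. The causes were not tested.

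Scaling to the GAPDH and actin controls, chosen after seeing the data, moved the median of all probe sets to -0.52, and 257 passed, 46 higher and 211 lower, against 658 higher and 855 lower; 7 collagen probe sets passed. Here COL1A1 202311_s_at (-0.33), COL5A1 212488_at, 203325_s_at and 212489_at (-0.06, -0.38 and -0.34) and COL5A2 221729_at and 221730_at (-0.28 each) changed sign, and COL3A1 211161_s_at (limma, adjusted p = 0.145), COL5A3 52255_s_at (0.135), COL1A1 217430_x_at (0.235) and COL1A2 202404_s_at (0.0577) no longer passed, while COL1A2 202403_s_at did (0.0354). Of the ratios, COL1A1 over COL1A2 was -0.38 when a gene's probe sets were averaged and -0.59 with the dimmest, and COL5A1 over COL5A2 was -0.07 with the dimmest.

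With the replicate number as a block 10 collagen probe sets and 2313 of all probe sets passed. The numbers do not pair the arrays, since deviations of same-numbered arrays correlated at 0.249, -0.184 and 0.38. Signal near background limits COL2A1 and the myoblast levels of COL11A1 and COL5A3 218975_at.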
